A study of Mus musculus with 4 samples.

Results

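The mitochondrial carriers of the Slc25 family were followed in liver RNA of fasted and non-fasted mice. The members were all protein-coding mouse genes whose symbol starts with Slc25a, plus the uncoupling proteins Ucp1, Ucp2 and Ucp3, which gave 50 genes of the 27179 counted. The processed pseudogene Slc25a5-ps was left out. All 50 had a row in each library, 45 had enough counts to be tested and 5 did not.

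Mitochondrial carriers sit in the inner membrane and move metabolites, nucleotides, phosphate, cofactors and protons between the cytosol and the mitochondrial matrix. A few members work in other membranes, such as that of the peroxisome. In liver they connect the steps of pathways that are split between both compartments: ornithine and aspartate for the urea cycle, malate and phosphate for glucose production, acylcarnitines for fatty acid oxidation, and citrate for lipid synthesis. Fasting shifts liver metabolism towards fatty acid oxidation, glucose production and nitrogen disposal, so the design asks which carriers differ between fasted and non-fasted liver.

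Total RNA of whole liver was labelled as coming from male C57BL/6 wild-type mice, with C57BL/6J and matched age and sex given in the protocol, and no age in the labels. The fasted group (2 libraries) had been kept overnight without food but with water, and the non-fasted group (2 libraries) had free access to food. No label ties a library to one animal or to a pool, so the spread behind each p-value is that of libraries and may be technical only. Groups follow the sample titles, since the treatment field lists fasting for all 4 libraries.

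Libraries held 13528015 to 36975921 counts, with the smaller totals in the fasted group. All 14 hepatocyte markers were detected in every library and took 14.1% of the counts in both fasted libraries and 5.73% and 5.69% in the non-fasted ones. The non-fasted libraries also held RNA that their labels do not account for. A list of 15 trophoblast (placental) markers took 5.67% and 5.72% of their counts, while the same list had 6 and 5 counts in the fasted libraries, where 12 of the 15 were at 0. Xist, which coats the silent X chromosome in female cells, reached 25772 and 26316 counts in the non-fasted libraries, all labelled male, and 2 and 1 with fasting. Fasting and this second source of RNA cannot be told apart in a comparison of the groups. In bulk RNA, fewer cells of a type and less RNA per cell cannot be told apart either.

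Carrier levels were described in 3 ways, none of which removes the second source of RNA. Median-of-ratios scaling, in which the typical tested gene is set equal between libraries, gave the main test with edgeR's quasi-likelihood method, and the median log2 fold change of all 15470 tested genes was then -0.13. Hepatocyte-marker scaling, which sets the typical one of the 14 markers equal between libraries, gave a median of -1.90 over the same genes. Single markers still ranged from -0.16 to 0.50 under it, with 7 called higher and 7 lower. Calls on carriers inside that range are no larger than the scatter of the markers. The ratio of 2 carriers within a library does not depend on any scaling. Fold changes are fasted over non-fasted on the log2 scale with their standard error, and normalised counts are raw counts divided by the median-of-ratios size factor.

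With median-of-ratios scaling, 27 of the 45 tested carriers were higher and 13 lower in the fasted libraries, and 5 did not pass the test. Of all tested genes, 37.2% were called higher and 45.0% lower. With hepatocyte-marker scaling, 10 carriers were higher and 35 lower, where 4.63% of all tested genes were higher and 90.2% lower. The 10 that were higher under both scalings were Slc25a13, Slc25a15, Slc25a22, Slc25a25, Slc25a10, Slc25a20, Slc25a30, Slc25a42, Slc25a34 and Slc25a47. Another 13 were lower under both, and 17 were higher with the first scaling and lower with the second. The second scaling lowers the log2 fold change of every carrier by nearly the same amount. A carrier lower with the first is therefore lower with the second by construction, and one higher with the second is higher with the first. Agreement between the scalings is thus not a separate test. The median log2 fold change of the tested carriers was 0.60 and -1.17 under the 2 scalings. Normalised counts did not overlap between groups for 43 of the 45, as for 91.9% of all tested genes. All 13 tested trophoblast markers were lower in the fasted libraries under both scalings. They passed the count filter only through the non-fasted libraries, so these calls of lower were close to fixed in advance. The part of that RNA in the carrier values was not tested.

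The hepatocyte markers themselves had log2 fold changes of 1.61 to 2.27 by median of ratios. In all, 8 carriers lay above the highest of them, namely Slc25a22, Slc25a25, Slc25a10, Slc25a20, Slc25a30, Slc25a42, Slc25a34 and Slc25a47. That is 8 of 45 carriers (17.8%), beside 380 of 15470 genes (2.46%). Slc25a13, Slc25a15, Slc25a5 and Slc25a23 lay within the range of the markers.

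**Figure D1:**
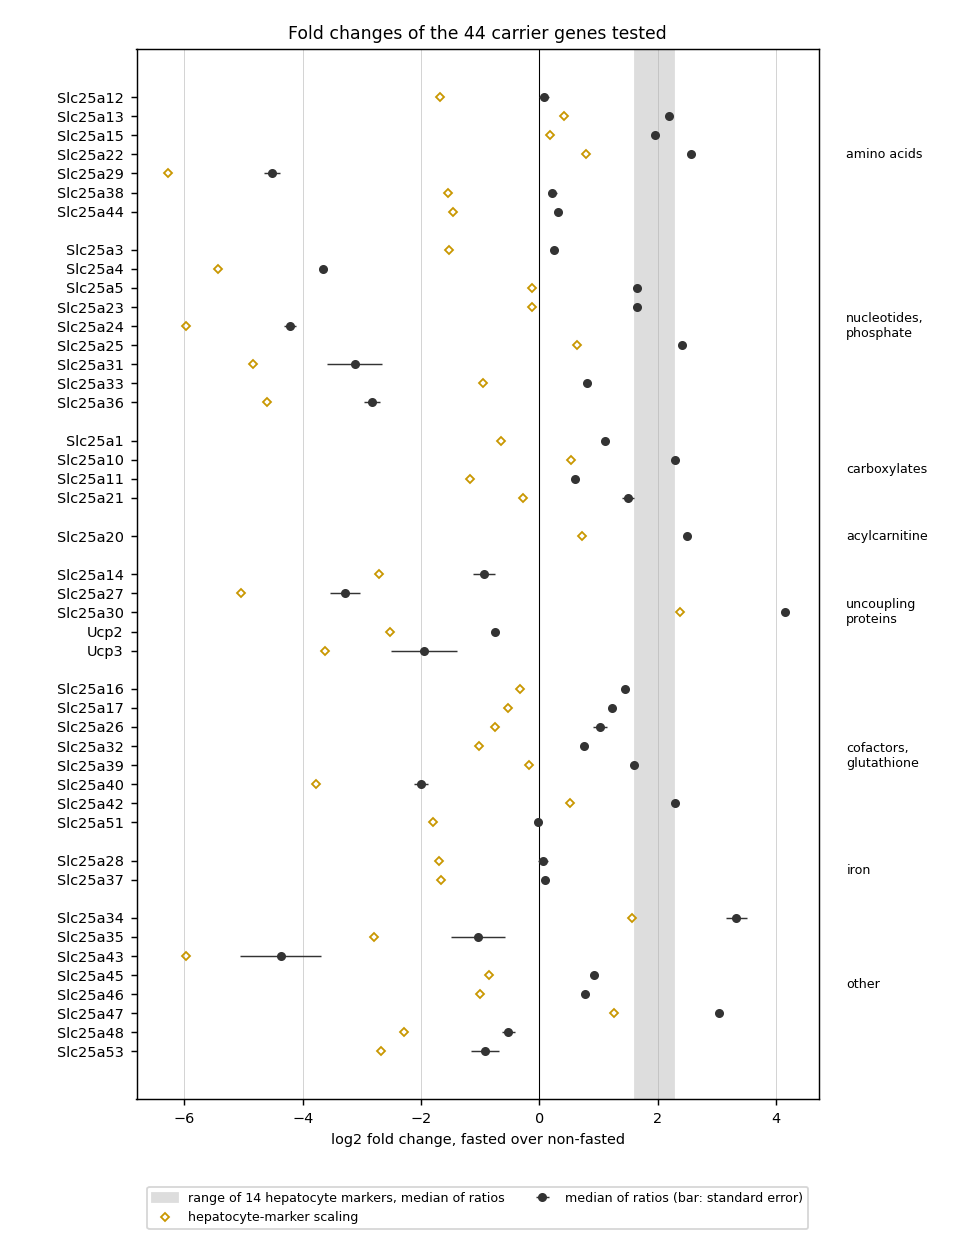
Log2 fold changes of 44 tested carriers, fasted over non-fasted (horizontal axis), grouped by substrate. Filled points are median-of-ratios values with standard errors, open diamonds are hepatocyte-marker values, and the grey band is the range of the 14 hepatocyte markers, 1.61 to 2.27. Slc25a30, at 4.15, stands farthest to the right, and Slc25a29, at -4.52, farthest to the left.

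Among the carriers of amino acids, median-of-ratios scaling called 5 of 7 tested members higher and 1 lower, and 3 were higher and 4 lower with hepatocyte-marker scaling. Slc25a15, which exchanges ornithine for citrulline in the urea cycle, had normalised counts of 9031 and 8881 with fasting against 2319 and 2323 without. Its log2 fold change was 1.95 ± 0.03 (adjusted p = 1.8e-11), and 0.18 ± 0.03 with hepatocyte-marker scaling (adjusted p = 4.1e-05). Slc25a13, the aspartate-glutamate carrier citrin, had 7348 and 7354 against 1605 and 1634. It was 4.54-fold higher, with a log2 fold change of 2.18 ± 0.03 (adjusted p = 1.1e-11) and of 0.41 by hepatocyte markers. Both fasted libraries were far above both non-fasted libraries for these carriers.

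Slc25a22, a glutamate carrier, showed the largest rise of the amino acid carriers, with 5263 and 5336 normalised counts against 898 and 905. The log2 fold change was 2.56 ± 0.03 (adjusted p = 5.8e-12), and 0.78 by hepatocyte markers. The largest fall was that of Slc25a29, a carrier of basic amino acids, with 19.6 and 29.5 normalised counts with fasting against 575 and 558 without. The log2 fold change was -4.52 ± 0.14, a 23.0-fold difference (adjusted p = 2.7e-09), and -6.28 with hepatocyte markers.

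The remaining amino acid carriers differed little by median of ratios. Slc25a12, the aspartate-glutamate carrier aralar, had 378 and 399 against 385 and 350 normalised counts and did not pass the test (log2 fold change 0.08, adjusted p = 0.38). Slc25a44, a carrier of branched-chain amino acids, was at 0.31, and Slc25a38, which is linked to glycine import for heme synthesis, at 0.22 (adjusted p = 0.02). Slc25a38 lost its call in 8 of the other settings run, among them without fasted library 2 (adjusted p = 0.14), without non-fasted library 1 (0.088) and without non-fasted library 2 (0.097). Slc25a12, Slc25a44 and Slc25a38 were lower, at -1.69, -1.46 and -1.55, with hepatocyte-marker scaling and lower with total-count scaling too. Slc25a2, a second ornithine carrier, had 3, 4, 6 and 3 raw counts in the order fasted 1, fasted 2, non-fasted 1 and non-fasted 2. Slc25a18, the second glutamate carrier, had 0, 1, 19 and 14, a non-fasted to fasted ratio of normalised counts of 8.52 with an exact 95% counting interval of 1.43 to 347. Neither was tested.

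Paralogs among the nucleotide and phosphate carriers differed in direction. Of 9 tested members, 5 were higher and 4 lower by median of ratios, and 1 was higher and 8 lower with hepatocyte-marker scaling. Slc25a5, the adenine nucleotide translocase of most dividing and epithelial cells, had 6807 and 6540 normalised counts with fasting against 2103 and 2178 without, and its log2 fold change of 1.64 ± 0.03 (adjusted p = 1.6e-10) became -0.13 ± 0.03 with hepatocyte markers. Slc25a4, the translocase that dominates in heart and muscle, had 116 and 138 against 1589 and 1616. It was 12.6-fold lower, with a log2 fold change of -3.66 ± 0.07 (adjusted p = 1.4e-10), and of -5.43 with hepatocyte markers. A list of 6 skeletal muscle markers had 43 and 56 raw counts with fasting against 89 and 116 without. As a share of all counts these were 0.00032% and 0.00041% with fasting against 0.00024% and 0.00031% without. Of the 6 markers, 4 were called higher and 1 lower. Slc25a4 alone had 59, 70, 3136 and 3188 raw counts.

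Slc25a31, the translocase known from testis, had 3 and 1 raw counts with fasting against 72 and 66 without. The log2 fold change was -3.12 ± 0.46 (adjusted p = 0.00022), and -4.85 by hepatocyte markers. It was -4.06 without fasted library 1 and -2.52 without fasted library 2. Slc25a31 passed the count filter only through the non-fasted libraries, which favours a call of lower. Of 4 testis markers, all were at 0 in the fasted libraries. Their summed counts were 39 and 67 in the non-fasted libraries, where 2 of the 4 were at 0. Ddx4 alone gave 38 and 66 of these counts. Slc25a3, the phosphate carrier that supplies ATP synthase, had 4109 and 4335 against 3570 and 3571 normalised counts, a log2 fold change of 0.24 ± 0.03 (adjusted p = 0.0001) that turned to -1.53 with hepatocyte markers and to -0.26 with total counts.

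The carriers that exchange ATP-Mg for phosphate, and so set the adenine nucleotide content of the matrix, moved in opposite directions. Slc25a25 had 4383 and 4323 normalised counts with fasting against 825 and 817 without. It was 5.30-fold higher, with a log2 fold change of 2.41 ± 0.03 (adjusted p = 9.6e-12) and of 0.64 by hepatocyte markers. Slc25a23 had 5824 and 5726 against 1872 and 1833, and its 1.64 ± 0.03 (adjusted p = 7e-11) became -0.13 by hepatocyte markers. Slc25a24 went the other way, with 45.1 and 61.0 against 975 and 992 normalised counts, a log2 fold change of -4.21 ± 0.10 (adjusted p = 4.4e-10), and of -5.98 with hepatocyte markers. Slc25a41, a further member of this branch, had no count in any library.

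The pyrimidine nucleotide carriers also differed from each other. Slc25a33 had 558 and 612 normalised counts against 334 and 333, a log2 fold change of 0.81 ± 0.06 (adjusted p = 3.1e-06) that was -0.96 by hepatocyte markers. Slc25a36 had 60.7 and 41.3 against 365 and 363, and was lower under both scalings, at -2.83 ± 0.14 (adjusted p = 8.3e-08) and -4.60.

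All 4 carriers of di- and tricarboxylates were higher by median of ratios, and only Slc25a10 stayed higher with hepatocyte-marker scaling. Slc25a10, the dicarboxylate carrier, which exports malate and succinate for phosphate, had 6984 and 6861 normalised counts with fasting against 1412 and 1406 without. Its log2 fold change was 2.30 ± 0.03 (adjusted p = 8.8e-12), and 0.53 ± 0.03 by hepatocyte markers (adjusted p = 1.2e-10). Slc25a1, the citrate carrier, which feeds cytosolic acetyl-CoA for lipid synthesis, had 3125 and 3183 against 1433 and 1481. Its value of 1.11 ± 0.03 (adjusted p = 2.5e-09) became -0.66 by hepatocyte markers. Slc25a21, the oxodicarboxylate carrier, was at 1.49 and Slc25a11, the oxoglutarate-malate carrier, at 0.60, and they were lower, at -0.27 and -1.17, by hepatocyte markers.

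Slc25a20, the carnitine-acylcarnitine translocase and the only member of its group, carries long-chain fatty acyl groups to the matrix for oxidation. It had 5779 and 5934 normalised counts with fasting against 1023 and 1056 without. It was 5.63-fold higher, with a log2 fold change of 2.49 ± 0.03 (adjusted p = 1.1e-11), and was still higher by 0.72 ± 0.03 with hepatocyte-marker scaling (adjusted p = 4.5e-12). Its counts did not overlap between groups.

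Of the 5 tested uncoupling proteins and their nearest relatives, 1 was higher and 4 were lower, under both scalings. Slc25a30, a kidney-enriched relative, had 4295 and 4203 normalised counts with fasting against 255 and 223 without. This was the largest fold change upwards of any tested carrier, 4.15 ± 0.05 or 17.8-fold (adjusted p = 6.6e-12), and remained 2.38 ± 0.05 by hepatocyte markers. Ucp2, which is widespread and abundant in macrophages, had 735 and 751 against 1284 and 1218, which gave -0.75 ± 0.05 (adjusted p = 1.1e-06), and -2.52 with hepatocyte markers. The 6 markers of Kupffer cells and macrophages went the other way, all 6 being higher by median of ratios, with a median of 2.25. Their part in the Ucp2 values was not tested.

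Ucp3, the muscle uncoupling protein, had 1 and 1 raw counts against 15 and 16, and passed the count filter only through the non-fasted libraries. Its log2 fold change of -1.95 ± 0.56 passed the test (adjusted p = 0.024), and the ratio of non-fasted to fasted normalised counts was 4.001 with an exact 95% counting interval of 1.02 to 34.5. The adjusted p was 0.12 without either fasted library, and DESeq2 gave 0.18. Ucp1, the heat-producing protein of brown fat, had 0 and 0 against 3 and 7 raw counts and was not tested. Of 6 brown fat markers, 1 (Elovl3) was higher and 2 (Dio2 and Prdm16) lower by median of ratios, while Cidea had 4, 2, 3 and 3 and Adipoq 0, 0, 4 and 3 raw counts. Slc25a27, a brain-enriched relative, showed the largest fall of the group, with 11.8 and 11.8 normalised counts against 118 and 114. It was at -3.28 ± 0.26 (adjusted p = 2.5e-06) and Slc25a14 at -0.94 ± 0.19 (adjusted p = 0.0013), and both were also lower by hepatocyte markers.

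Among the carriers of cofactors, vitamins and glutathione, 7 of 9 were higher and 1 lower by median of ratios, but 1 was higher and 8 lower with hepatocyte-marker scaling. The one that kept its direction upwards was Slc25a42, the coenzyme A carrier, with 3221 and 3173 normalised counts against 681 and 627. It was 4.89-fold higher, at 2.29 ± 0.04 (adjusted p = 9.8e-11), and at 0.52 ± 0.04 by hepatocyte markers. Slc25a39, a glutathione importer, was the most abundant of the group, with 9147 and 9227 against 3064 and 3025, and its 1.59 ± 0.03 (adjusted p = 5.3e-11) became -0.18 by hepatocyte markers. Its paralog Slc25a40 had 92.1 and 90.5 against 379 and 352 and was lower under both scalings, at -2.00 ± 0.12 (adjusted p = 3e-07) and -3.77.

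Slc25a16, which is linked to coenzyme A supply, had 2132 and 2105 against 814 and 749 normalised counts, a log2 fold change of 1.44 ± 0.05 that became -0.33 by hepatocyte markers. The peroxisomal carrier Slc25a17 was at 1.23, the S-adenosylmethionine carrier Slc25a26 at 1.02 and the folate and flavin carrier Slc25a32 at 0.75, and all 3 were lower, between -0.54 and -1.02, by hepatocyte markers. Slc25a51, which imports NAD, had 1458 and 1501 against 1508 and 1504 and did not pass the test (log2 fold change -0.03, adjusted p = 0.56). It was lower by hepatocyte markers, at -1.80 (adjusted p = 1.4e-16), and with total counts, at -0.53 (adjusted p = 7e-07).

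The mitoferrins, which bring iron to heme and iron-sulfur cluster synthesis, were the only group without a call by median of ratios. Slc25a37, the form of red cell precursors, had 1025 and 1044 normalised counts against 968 and 965 (log2 fold change 0.10 ± 0.04, adjusted p = 0.061). Slc25a28, the widespread form, had 341 and 382 against 333 and 358, and its groups overlapped (0.06 ± 0.08, adjusted p = 0.5). With hepatocyte-marker scaling they were lower, at -1.67 and -1.71. Of 5 erythroid markers, 4 were lower and 1 (Alas2) higher in the fasted libraries by median of ratios. The part of red cell RNA in the mitoferrin values was not tested.

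The members without an assigned substrate included the most abundant carrier of the fasted libraries. Slc25a47, a liver-restricted carrier, had 14632 and 14463 normalised counts with fasting against 1805 and 1756 without. It was 8.17-fold higher, at 3.03 ± 0.03 (adjusted p = 2.6e-12), and at 1.26 ± 0.03 by hepatocyte markers (adjusted p = 1.5e-15). Slc25a34 had the largest rise of this group with 388 and 289 against 33.4 and 34.0, a 10.02-fold difference and a log2 fold change of 3.33 ± 0.18 (adjusted p = 1.7e-07), or 1.56 by hepatocyte markers. Slc25a46, an outer membrane protein linked to mitochondrial shape, had 1503 and 1591 against 912 and 914, and its 0.76 ± 0.04 (adjusted p = 1.4e-07) became -1.01 by hepatocyte markers.

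Slc25a45 was at 0.92, and at -0.85 by hepatocyte markers, while Slc25a48 (-0.53) and Slc25a53 (-0.92) were lower under both scalings. The call on Slc25a48 was lost without fasted library 1 (adjusted p = 0.091) and that on Slc25a53 without fasted library 2 (adjusted p = 0.079). Slc25a43 had 0 and 1 raw counts against 45 and 43, a ratio of non-fasted to fasted normalised counts of 22.7 with an exact 95% counting interval of 3.97 to 907 (adjusted p = 0.00031). Its log2 fold change was -3.42 without fasted library 1 and -8.05 without fasted library 2, which held its only fasted count. Slc25a43 passed the count filter only through the non-fasted libraries, so a call of lower was close to fixed in advance. Slc25a35 had 19.6 and 5.90 against 30.4 and 22.3 normalised counts and did not pass by median of ratios (-1.04 ± 0.46, adjusted p = 0.063). It was lower by hepatocyte markers, at -2.79 (adjusted p = 4.8e-06), and with total counts, at -1.54 (adjusted p = 0.01). Slc25a35 passed the count filter only through the non-fasted libraries, which favours a call of lower. Without fasted library 1 it was at -2.11 and without fasted library 2 at -0.39, neither past the test. Of its exon bases, 31.3% overlap Rangrf on the opposite strand, and whether the counting used strand is not given in the sources used here. Slc25a54 had 0, 0, 1 and 1 raw counts and was not tested.

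**Figure D2:**
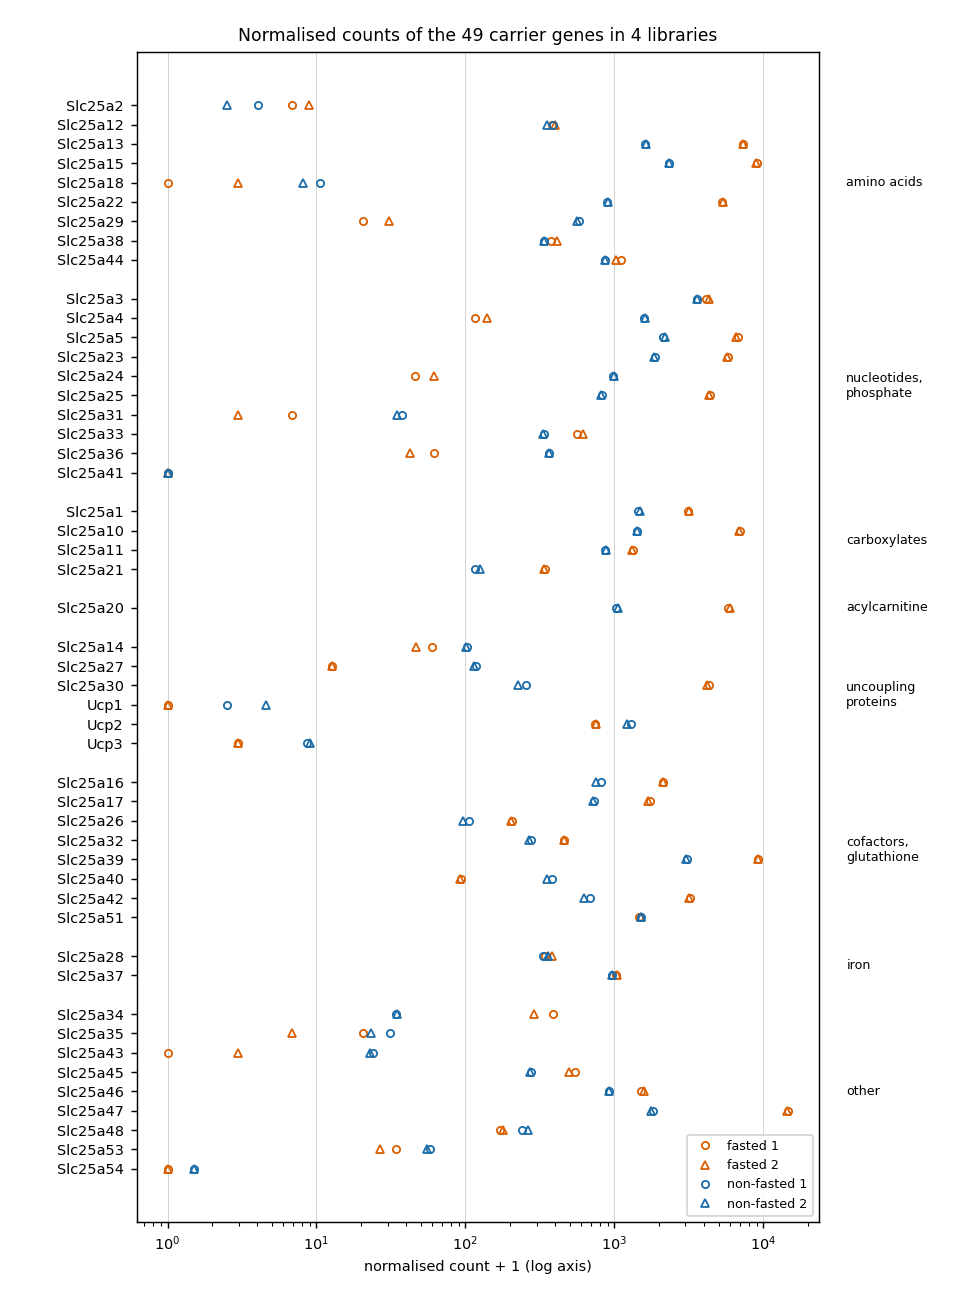
Normalised counts plus 1 (horizontal log axis) of 49 carriers in each of the 4 libraries, orange for fasted and blue for non-fasted, circles for replicate 1 and triangles for replicate 2. The libraries of a group nearly coincide for abundant carriers such as Slc25a47, at 14632 and 14463 in the fasted libraries, and spread for those with few counts, such as Slc25a35 at 19.6 and 5.90.

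Ratios of paralogs within a library are free of the scaling between libraries, but not of the second source of RNA in the non-fasted libraries. In all, 10 pairs were compared by the log2 ratio of raw counts with 0.5 added to each, in exact two-sided permutation tests over libraries. With 2 libraries against 2 no exact permutation test can go below p = 0.33, which is also its value for the 8 pairs whose ratios did not overlap between groups. Taken singly, 91.9% of all tested genes did not overlap between groups, and no share over other gene pairs was computed. Slc25a4 made up 1.86% of the summed counts of Slc25a4 and Slc25a5 in the fasted and 42.8% in the non-fasted libraries. The log2 ratios were -5.87 and -5.56 against -0.40 and -0.43, a difference of -5.30.

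The ATP-Mg carriers showed the widest change of ratio. Slc25a25 over Slc25a24 stood at 6.57 and 6.13 in the fasted libraries and at -0.24 and -0.28 in the non-fasted ones, a difference of 6.61, so that Slc25a25 made up 98.8% and 45.5% of the pair. Slc25a23 over Slc25a24 differed by 5.84. Slc25a22 over Slc25a18 differed by 4.88, with only 1 fasted count of Slc25a18 behind it, Slc25a33 over Slc25a36 by 3.65, and Slc25a39 over Slc25a40 by 3.58. Slc25a13 made up 94.98% of the aspartate-glutamate carrier counts in the fasted and 81.5% in the non-fasted libraries, a difference of 2.10 on the log2 scale. Ucp3 over Ucp2 differed by -0.71, on 2 fasted counts of Ucp3.

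The other two pairs overlapped between groups. Slc25a28 over Slc25a37 was at -1.58 and -1.45 in the fasted and at -1.54 and -1.43 in the non-fasted libraries (exact permutation p = 0.667). Slc25a15 over Slc25a2 differed by 0.26 (exact permutation p = 0.667). Whether reads that match more than one paralog were counted is not given in the sources used here, so ratios of near-identical stretches are uncertain.

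**Figure D3:**
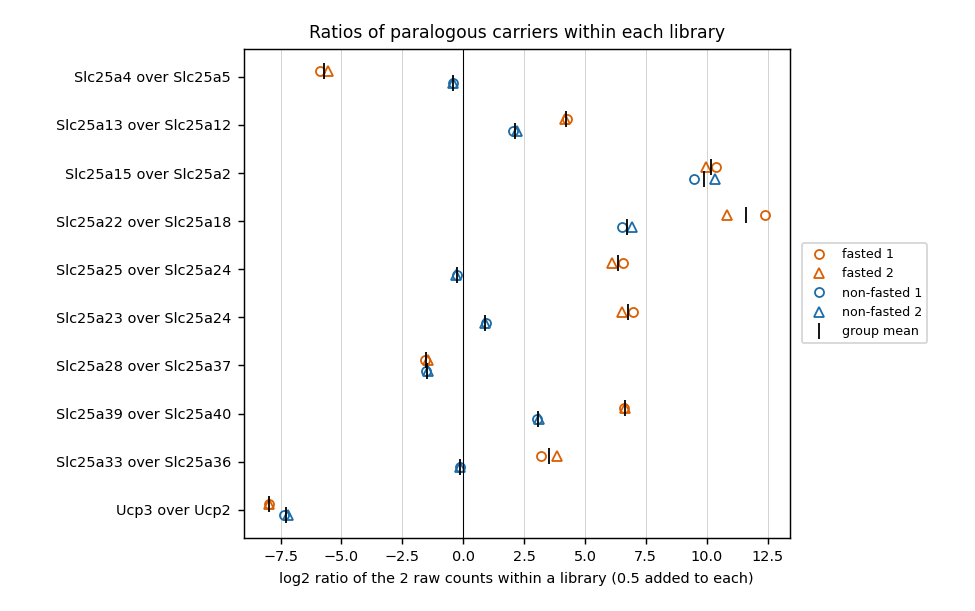
Log2 ratio of the raw counts of 10 carrier pairs in each library (horizontal axis, 0.5 added to each count), orange for fasted and blue for non-fasted, with black ticks at the group means. Groups are apart in 8 pairs, most widely for Slc25a25 over Slc25a24 (6.35 against -0.26), and overlap for the mitoferrins and the ornithine carriers. No share over other gene pairs was computed.

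As a share of all counts, the 50 carriers took 0.398% and 0.395% in the fasted libraries and 0.202% and 0.201% in the non-fasted libraries. The Wilson 95% intervals, 0.394 to 0.401% and 0.392 to 0.398% against 0.2002 to 0.203% and 0.199 to 0.202%, cover counting error only. Within the family, levels were compared as CPM (counts scaled to the library total) per kilobase of exon. Exon length was the union of all annotated exons of a gene, not the length of the transcript expressed. Ranks and shares between carriers depend on that choice. Slc25a47 led in the fasted libraries with 16.6% of the family signal, followed by Slc25a5 (13.8%), Slc25a39 (11.3%), Slc25a10 (6.82%) and Slc25a13 (6.59%). In the non-fasted libraries Slc25a5 (12.3%) and Slc25a39 (10.5%) led, followed by Slc25a4 (6.44%), Slc25a1 (6.37%), Slc25a3 (6.09%) and Slc25a47 (5.64%). Slc25a4 and Slc25a1 did not differ beyond their spread there, at 36.4 ± 0.4 and 35.9 ± 0.9 CPM per kilobase (SD, n = 2).

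The fasted signal was more concentrated in the leading carriers. The 3 highest members took 41.7% of it against 29.2% in the non-fasted libraries, and the 10 highest took 76.5% against 63.0%. By substrate, nucleotide and phosphate carriers made up 23.4% and 23.2% of the fasted and 33.8% and 34.3% of the non-fasted signal. Members without an assigned substrate, chiefly Slc25a47, made up 18.9% and 18.7% against 9.31% and 9.18%, and Slc25a20 alone 4.05% and 4.18% against 2.00% and 2.06%. Amino acid carriers (16.7% and 16.8% against 15.4% and 15.3%) and di- and tricarboxylate carriers (14.1% and 14.2% against 14.2% and 14.5%) held nearly the same share.

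**Figure D4:**
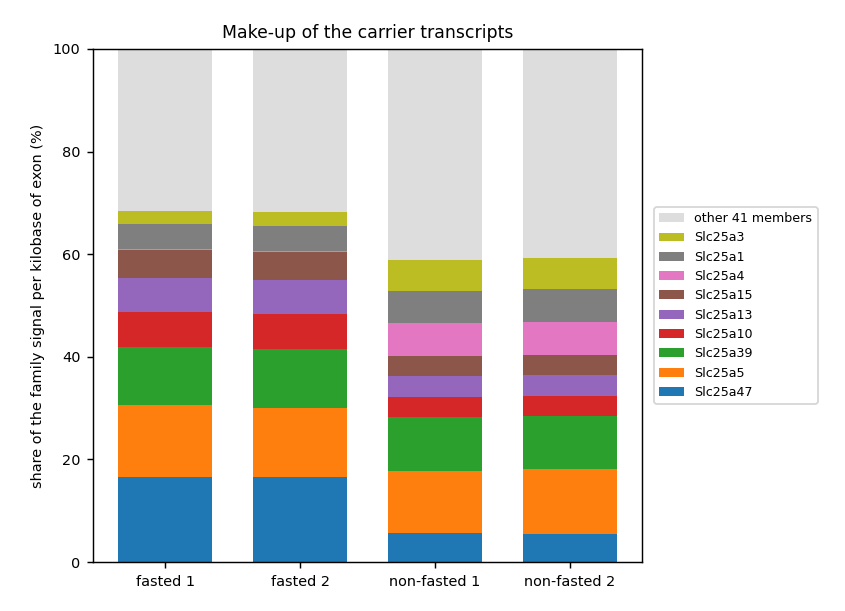
Share of the family signal per kilobase of exon (vertical axis, percent) taken by 9 carriers, those among the 6 highest of either group, and by the other 41, in each library. Slc25a47 holds 16.6% of the fasted and 5.64% of the non-fasted signal on average, and Slc25a4 is visible as a band only in the non-fasted libraries, at 6.44%.

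The enzymes on either side of these carriers were counted from fixed lists. Of all tested genes, 37.2% were higher and 45.0% lower by median of ratios, and 4.63% higher and 90.2% lower by hepatocyte markers. All 6 urea cycle genes were higher by median of ratios, from Ass1 (1.11) to Asl (2.21), and by hepatocyte markers 3 were higher, 2 lower and 1 not past the test. Slc25a15, at 1.95, lay inside that range. The 4 malate-aspartate shuttle enzymes were higher by median of ratios, from Mdh2 (0.68) to Got2 (1.61). By hepatocyte markers all 4 were lower, as were most tested genes. Of the aspartate-glutamate and oxoglutarate-malate carriers, Slc25a13 was higher by hepatocyte markers (0.41), and Slc25a12 (-1.69) and Slc25a11 (-1.17) were lower.

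Of 5 carnitine shuttle genes, 4 were higher and 1 lower, under both scalings. Crot, the peroxisomal carnitine octanoyltransferase, was highest at 3.08, with 24882 and 24879 raw counts against 11505 and 11357, and the carnitine importer Slc22a5 was lowest at -0.55. Slc25a20, at 2.49, lay between them. Of 6 genes of pyruvate and citrate use, 4 were higher and 1 lower by median of ratios, from Acly (-0.46) to Mpc2 (1.90), and 1 was higher and 4 lower by hepatocyte markers. Acly, which splits the citrate exported by Slc25a1, had 1341 and 1382 raw counts with fasting against 7240 and 7291 without.

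All 9 genes of heme synthesis were higher by median of ratios, from Uros (0.50) to Alas1 (2.82), and 2 were higher and 7 lower by hepatocyte markers. Of 7 genes of coenzyme A synthesis, 6 were higher by median of ratios, with Pank1 highest at 2.45 and Pank4 lowest at -0.05, which did not pass the test, and by hepatocyte markers 1 was higher and 5 lower. The 4 glycine cleavage genes were higher, from Dld (1.03) to Gldc (2.15), and by hepatocyte markers 1 was higher and 3 lower. Of 5 outer membrane channels and carrier-fold proteins outside the symbol rule, 4 were higher and 1 lower by median of ratios, from Vdac2 (-0.13) to Mtch2 (1.24), and all 5 were lower by hepatocyte markers.

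Promoter sequences of 39 of the 50 carriers were taken from RefSeq on GRCm38.p6, and the 250 bases before each start were searched on both strands for 3 motifs of factors known from fasting and lipid control. AGGTCA, the core of nuclear receptor sites such as those of PPARα, was found at 6 of 39 carriers (15.4%) and at 15.8% of 27025 genes. TGACGTCA, the full cAMP response element, was found at Slc25a25 and Slc25a36 (5.13%) and at 1.77% of all genes. CACGTG, the E-box, was found at 7 carriers (17.9%) and at 6.86% of all genes. A gene was counted if any of its starts matched. The 27025 genes were not limited to protein-coding ones, unlike the carriers, so the shares are of unlike sets. A match is a description of the letters and not a bound site.

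The share of all carriers or of all genes that hold any of the 3 motifs was not computed. The following count therefore shows no trait of the carriers it covers. Of the 8 carriers above the hepatocyte markers, 3 held one of these motifs. They are printed for that reason 5′ to 3′ on the strand of the gene, with the match, on either strand, in capitals.
Slc25a47, chr12:108850879-108851128, plus strand, match 153 bases before the start: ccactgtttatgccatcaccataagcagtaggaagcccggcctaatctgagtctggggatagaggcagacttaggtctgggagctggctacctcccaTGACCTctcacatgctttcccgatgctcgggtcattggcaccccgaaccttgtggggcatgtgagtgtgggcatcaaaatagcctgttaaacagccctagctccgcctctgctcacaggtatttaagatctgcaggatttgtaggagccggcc
Slc25a34, chr4:141623835-141624084, minus strand, match 119 bases before the start: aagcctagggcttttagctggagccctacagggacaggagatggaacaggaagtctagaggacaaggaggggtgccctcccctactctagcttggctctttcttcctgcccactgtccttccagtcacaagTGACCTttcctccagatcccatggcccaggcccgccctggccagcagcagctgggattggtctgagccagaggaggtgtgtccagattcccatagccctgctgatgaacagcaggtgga
Slc25a25, chr2:32424067-32424316, minus strand, one of 3 annotated starts, match 150 bases before the start: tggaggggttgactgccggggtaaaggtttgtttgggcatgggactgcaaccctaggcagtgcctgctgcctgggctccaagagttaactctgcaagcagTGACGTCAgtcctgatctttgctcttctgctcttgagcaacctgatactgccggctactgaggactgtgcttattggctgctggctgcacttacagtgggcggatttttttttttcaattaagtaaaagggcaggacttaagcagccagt
Slc25a47 and Slc25a34 carry TGACCT, which is AGGTCA on the other strand, and the other 2 starts of Slc25a25 held none of the 3 motifs. Slc25a36, the other carrier with TGACGTCA, was lower under both scalings while Slc25a25 was higher under both.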

How the data were processed

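Liver RNA-seq libraries (2 fasted, 2 non-fasted) were grouped by sample title. The authors deposited raw counts per Entrez gene, not normalised. Their processing notes name Trimmomatic, STAR, featureCounts, FastQC, MultiQC, DESeq2 1.32.0 and the build GRCm39. Not given in the sources used here are their roles, the strand setting and the multi-mapping rule. RefSeq and GENCODE tables of GRCm38 gave symbols (25275 of 27179 identifiers), exon lengths, overlaps and promoters.

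Counts were filtered with filterByExpr, scaled by median of ratios over the tested genes and tested with edgeR 4.0.16 (R 4.3.3, limma 3.58.1), quasi-likelihood, two-sided, with Benjamini-Hochberg adjustment over 15470 genes at 0.05. The test was tested on simulated data with few changed genes and no second source of RNA, which does not bear on the scaling or on false calls here. Standard errors were back-calculated from the F statistic. Raw counts of a group differed slightly more than counting noise (chi-square per gene 1.11 and 1.13), so all 4 libraries were kept. Their common biological coefficient of variation was 0.00988, so small differences pass the test.

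Members, substrate groups and lists were chosen with earlier results of these data known. Every member is accounted for by name except 1, which is counted but not reported here by itself. Values per library are given, in each substrate group, for the 2 most abundant members and those with the largest rise and fall, and for Slc25a20, the Ucp genes and both genes of each paralog pair. Of partner lists the highest and lowest fold changes are given. The other members, and the raw counts of Crot, Acly, Cidea and Adipoq, were chosen after their values were seen. Markers of embryonic red cells (3 genes, 1 tested, lower) and endothelium (2 of 6 higher, 4 lower) were also counted. Alternatives were TMM, upper-quartile, total-count and hepatocyte-marker scaling, other filters, DESeq2 1.42.0, exact deviance, a fixed coefficient of variation of 0.2, a minimum fold of 2, a replicate block, leaving out each library and, chosen after seeing the data, thinning to equal totals. Plots used Python 3.11.15 and matplotlib 3.10.9.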

Additional observations from a re-analysis of the deposited data

How the results depend on the processing

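The scaling changed many directions. With hepatocyte markers 10 carriers were higher and 35 lower, with total counts 21 were lower, and with a minimum fold of 2 the calls were 17 higher and 8 lower. Hepatocyte markers reversed Slc25a12 (-1.69), Slc25a38 (-1.55), Slc25a44 (-1.46), Slc25a3 (-1.53), Slc25a5 (-0.13), Slc25a23 (-0.13), Slc25a33 (-0.96), Slc25a1 (-0.66), Slc25a11 (-1.17), Slc25a21 (-0.27), Slc25a16 (-0.33), Slc25a17 (-0.54), Slc25a26 (-0.75), Slc25a32 (-1.02), Slc25a39 (-0.18), Slc25a28 (-1.71), Slc25a37 (-1.67), Slc25a45 (-0.85) and Slc25a46 (-1.01). Total counts reversed Slc25a12 (-0.42), Slc25a38 (-0.29), Slc25a44 (-0.20), Slc25a3 (-0.26), Slc25a28 (-0.44) and Slc25a37 (-0.41), and upper-quartile scaling reversed Slc25a51 (0.092). Group medians turned to -1.46 (amino acids), -1.53 (nucleotides and phosphate), -0.47 (di- and tricarboxylates), -0.75 (cofactors), -1.69 (iron) and -1.65 (other) with hepatocyte markers, and to -0.20 (amino acids), -0.26 (nucleotides and phosphate), -0.42 (iron) and -0.39 (other) with total counts. These shifts follow from the construction of the scalings.

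Leaving out each library gave 26 to 27 higher and 11 to 12 lower carriers. The difference in ratio of Slc25a15 to Slc25a2 ranged from -0.19 (without non-fasted replicate 1) to 0.71, and that of Slc25a28 to Slc25a37 from -0.10 to 0.033 (without fasted replicate 1), with 0.021 without non-fasted replicate 2. The replicate block gave 27 higher and 13 lower carriers, losing Ucp3 (adjusted p = 0.054) and gaining Slc25a35 (adjusted p = 0.034). Slc25a35 also passed with a filter of at least 1 CPM in 2 libraries (adjusted p = 0.021). It met that filter only through the non-fasted libraries, at 1.62 and 1.19 CPM against 0.74 and 0.22 with fasting, which favours a call of lower. Deviations of same-numbered libraries from their group means had a correlation of -0.0074 over genes. With a spread close to counting noise, this value cannot tell whether they share a batch. DESeq2 lost the calls on 2 carriers, Slc25a38 and Ucp3. A coefficient of variation of 0.2, set in place of 0.00988, gave 22 higher and 11 lower. Depth limits the 5 carriers that were not tested and Ucp3, Slc25a31, Slc25a35 and Slc25a43.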
